A study of Homo sapiens with 2 samples.

Results

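The cytosolic HSP90 machinery was followed in the RNA of cultured human cells. It was taken as 10 genes chosen by name: the HSP90 genes HSP90AA1 and HSP90AB1, and the co-chaperones STIP1, PTGES3, STUB1, AHSA1, CDC37, SUGT1, UNC45A and PPP5C. All 10 had a row among the 332 genes of the deposited chaperome table, which covers chaperones, their helpers and folding enzymes. The cells were of the line HEK293 Flp-In T-Rex, of human embryonic kidney origin, with a recombination site for inserting a transgene and a tetracycline repressor that controls it. An extraction note calls the cells HEK293T instead, and a table limited to chaperome genes gave no check of the line. The 2 total RNA libraries form 1 group, replicates 1 and 2, with no treated or control group to set against each other. The count columns carry the prefix NHS, which the labels do not define, so whether it names a condition of the cells is not known here. The series describes derivatives of this line that carry tagged GFP or tagged HSPA1A under tetracycline control. The sample labels name neither derivative and no tetracycline, so whether such a line was the one sequenced is not known here, and nothing says that the replicates came from separate cultures.

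HSP90 is an ATP-driven dimeric chaperone that takes over late, nearly folded clients such as protein kinases and steroid receptors. A client reaches it from HSP70 through the adaptor STIP1 (HOP), or through the kinase adaptor CDC37. AHSA1 (AHA1) then speeds up ATP hydrolysis, while PTGES3 (p23) holds the closed, ATP-bound dimer. UNC45A, which helps myosins fold, SUGT1 (SGT1), an adaptor for leucine-rich-repeat proteins and the kinetochore, and the phosphatase PPP5C serve particular clients or late steps. STUB1 (CHIP) is a ubiquitin ligase that docks on HSP70 or HSP90 and sends their clients to degradation. HSP90AB1 is known as the constitutive gene of the pair and HSP90AA1 as the heat-inducible one.

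STIP1, STUB1, PPP5C and UNC45A carry tetratricopeptide repeats, and for several such co-chaperones the docking site is the EEVD motif at the C terminus of HSP90 or HSP70. The last 60 bases of the coding sequence are shown for both HSP90 genes and for HSPA8, the constitutive HSP70, from GENCODE 29 transcripts, with the stop codon at the end and the 4 codons of that motif in capitals. They show the docking site of several co-chaperones, and how far the HSP90 genes differ as RNA.
HSP90AA1 (chromosome 14): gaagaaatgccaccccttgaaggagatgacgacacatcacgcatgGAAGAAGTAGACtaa
HSP90AB1 (chromosome 6): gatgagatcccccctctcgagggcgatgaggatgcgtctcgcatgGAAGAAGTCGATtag
HSPA8 (chromosome 11): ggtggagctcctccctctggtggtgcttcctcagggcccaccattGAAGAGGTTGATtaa

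Over the whole coding sequence, 2199 bases in HSP90AA1 and 2175 bases in HSP90AB1, the HSP90 genes were identical at 76.4% of aligned bases. The longest run they shared was 23 bases, gcctttcaggcagaaattgccca, so a read of 50 bases would not match both coding sequences exactly. Retrocopies share more. Of the windows of 50 bases in the principal transcript of each gene, 18.2% of those of HSP90AA1 and 18.8% of those of HSP90AB1 also occurred in transcripts of another annotated gene, mainly the pseudogenes HSP90AA2P and HSP90AB3P. The share was 12.9% for PTGES3 and at most 4.42% for the other 7 members, and 0 for STUB1, AHSA1 and UNC45A. The sources used here do not give how reads that match several genes were counted. How far this sharing changed the levels of both HSP90 genes and of PTGES3 is therefore not known, and the shares do not bound it. HSP90AA2P, a row of its own in the table, had 5 reads in replicate 1 and 3 reads in replicate 2.

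The start regions of both HSP90 genes hold the heat shock element, the inverted repeat bound by the heat shock factor HSF1. It was searched on both strands as GAANNTTCNNGAA or its reverse complement TTCNNGAANNTTC, in RefSeq windows (GRCh38.p14) from 250 bases before to 50 bases after each start site. These windows covered 8 members, all but STUB1 and PPP5C. The matches are shown with 8 bases on either side, on the strand of the gene, 5′ to 3′, with the element in capitals.
HSP90AA1, minus strand, chr14:102087112-102087140: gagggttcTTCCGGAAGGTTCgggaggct
HSP90AB1, plus strand, chr6:44247770-44247798: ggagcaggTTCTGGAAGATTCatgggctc
HSP90AB1, plus strand, chr6:44247823-44247851: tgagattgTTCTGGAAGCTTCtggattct

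The HSP90AA1 match began 88 bases before the RefSeq start site at 102087044, within an exon of the GENCODE transcript HSP90AA1-201, which starts further upstream. The HSP90AB1 matches began 165 and 112 bases before the start site at 44247943, and lay in no annotated exon but in an intron of 3 longer coding transcripts of the same gene. A match was found in 2 of the 8 members with windows (25.0%), in 9 of 266 genes of the chaperome table (3.38%) and in 166 of 27305 genes overall (0.608%). The other 7 table genes with a match were HSPA6, HSPA8, HSPD1, DNAJA1, DNAJB6, SERPINH1 and TMX2. A match describes letters and not binding.

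Levels are given in RPKM, reads scaled to the length of the gene in kilobases and to the size of the library. The authors' RPKM divides by the genomic span of a gene, introns included, so every level was also computed per kilobase of exon, the union of all exons of the gene in GENCODE 29. The span was 1.14 to 11.2 times the exonic length among the members, against a median of 6.37 over the table. The library totals behind the authors' values were 6828264 and 4445676 reads. The 10 members took 22914 reads, or 0.336% of replicate 1 (95% Wilson interval 0.331 to 0.340), and 17731 reads, or 0.399% of replicate 2 (0.393 to 0.405). These intervals cover counting error only. The least covered member, UNC45A, had 382 and 249 reads. Across the 332 genes, Pearson's r between the replicates was 0.996 and Spearman's rho 0.980 on log2(RPKM + 1), across genes that are not independent samples.

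The 10 genes taken as the machinery were all detected, and at levels above those of the typical gene of the table. All 10 members reached a mean of 1 RPKM on either scale, against 46.4% of the table per kilobase of span and 74.4% per kilobase of exon. At 10 RPKM or more there were 5 members per kilobase of span, where 9.94% of all genes were, and 7 per kilobase of exon, where 34.0% were. The median member stood at 8.47 RPKM per kilobase of span and 41.9 per kilobase of exon, and the median of all 332 genes at 0.784 and 5.17 RPKM. The members held 12.2 ± 0.423% of the table's summed RPKM by span and 14.0 ± 1.31% by exonic length (SD, n = 2). No p-value is given for levels or their order, since the smallest p that 2 replicates allow in an exact test is 0.5.

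**Figure D1:**
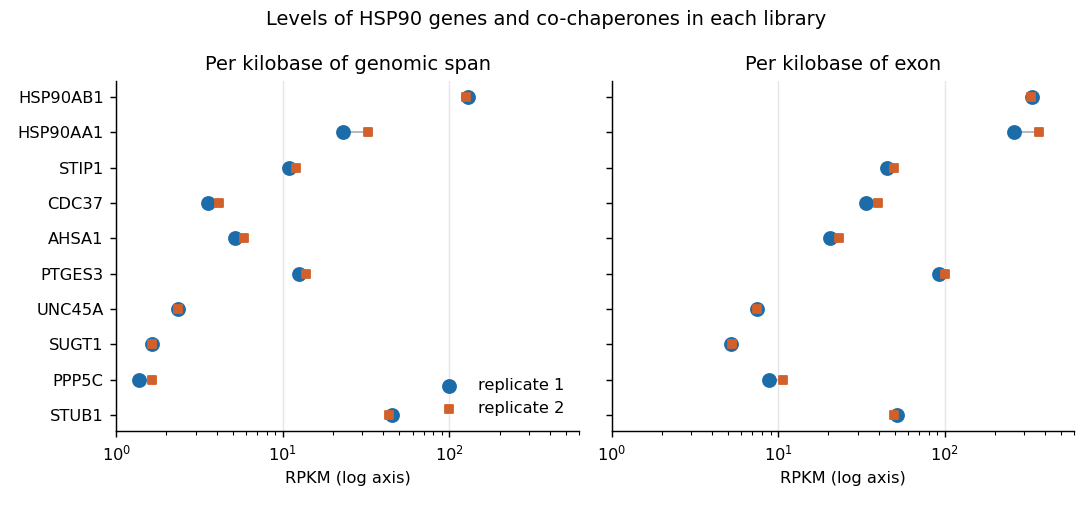
RPKM of the 10 genes in each library, per kilobase of genomic span (left) and per kilobase of exon (right), on log axes; circles are replicate 1 and squares replicate 2, joined by a line. HSP90AB1 stands alone at the top by span (128.6 and 126.5 RPKM), while by exon HSP90AA1 and HSP90AB1 overlap between 259 and 367 RPKM.

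The HSP90 genes come first. HSP90AB1 (ENSG00000096384, chromosome 6, 44246166 to 44253888, plus strand, GRCh38) had 6780 reads in replicate 1 and 4341 in replicate 2. Its level was 128.6 and 126.5 RPKM per kilobase of span, the third highest of the table, and 333 and 328 RPKM per kilobase of exon, the second highest. The libraries were close together for this gene. HSP90AA1 (ENSG00000080824, chromosome 14, 102080742 to 102139699, minus strand) had more reads than HSP90AB1 in both libraries, 9290 and 8556. Its level was 23.1 and 32.6 RPKM per kilobase of span, rank 13, and 259 and 367 RPKM per kilobase of exon, rank 3. Replicate 2 was the higher library for this gene on every scale.

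The order of the HSP90 genes depended on the gene length used, both on whether introns were counted and on the annotated start. The authors' span was 11.2 times the exonic length for HSP90AA1 and 2.59 times for HSP90AB1. HSP90AA1 has coding transcripts from a distant start, at 102139686 and 102139699, and from a near start, at 102087191 and 102087044. The authors' span of 58957 bases reaches the distant start, whereas the principal transcript HSP90AA1-201 spans 6454 bases from the near start. HSP90AB1 over HSP90AA1 was 5.57 and 3.87 in replicates 1 and 2 by the authors' span (log2 ratio 2.22 ± 0.37, SD, n = 2). By exonic length it was 1.29 and 0.894, on opposite sides of equality (0.10 ± 0.37). By the exonic length of the principal transcript it was 0.922 and 0.641, and by that transcript's span 0.783 and 0.544, with HSP90AA1 the higher gene in both libraries (log2 ratios -0.38 ± 0.37 and -0.62 ± 0.37). Which start was used in these cells was not measured by counts per gene.

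Among the adaptors that load clients, STIP1 stood above CDC37. STIP1 (ENSG00000168439, chromosome 11, 64185272 to 64204543, plus strand), which binds HSP70 and HSP90 together, had 1429 and 1027 reads. Its level was 10.9 and 12.0 RPKM per kilobase of span and 44.9 and 49.6 per kilobase of exon. CDC37 (ENSG00000105401, chromosome 19, 10391133 to 10420121, minus strand), which recruits kinases, had 699 and 534 reads. Its level was 3.53 and 4.14 RPKM per kilobase of span and 33.7 and 39.5 per kilobase of exon. The libraries did not overlap between these genes on either scale. As for HSP90AA1, a distant start widens the span of CDC37: the transcript CDC37-210 starts at 10420121, while the principal transcript spans 12400 of the 28988 bases. The log2 ratio of STIP1 to CDC37 shrank with the length used, from 1.58 by span to 0.37 by exon, against a standard error of 0.13.

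After loading, AHSA1 speeds the ATPase cycle and PTGES3 slows it. PTGES3 (ENSG00000110958, chromosome 12, 56663341 to 56688408, minus strand), which stabilises the closed dimer, had 2147 and 1525 reads, the most of any co-chaperone here. Its level was 12.5 and 13.7 RPKM per kilobase of span and 92.5 and 100.9 per kilobase of exon. AHSA1 (ENSG00000100591, chromosome 14, 77457870 to 77469472, plus strand), the activator of the ATPase, had 409 and 302 reads. Its level was 5.16 and 5.86 RPKM per kilobase of span and 20.3 and 23.0 per kilobase of exon. PTGES3 was thus higher than AHSA1 in both libraries, by 1.25 ± 0.04 on the log2 scale per kilobase of span and 2.16 ± 0.04 per kilobase of exon (SD, n = 2).

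With the gene lengths tried, the genes of particular clients or late steps had the lowest levels of the machinery. UNC45A (ENSG00000140553, chromosome 15, 90930180 to 90954093, plus strand) had 382 and 249 reads and 2.34 RPKM per kilobase of span in both libraries, and 7.46 and 7.47 per kilobase of exon. SUGT1 (ENSG00000165416, chromosome 13, 52652709 to 52700909, plus strand) had 536 and 353 reads, 1.63 and 1.65 RPKM per kilobase of span, and 5.20 and 5.26 per kilobase of exon. PPP5C (ENSG00000011485, chromosome 19, 46347087 to 46392981, plus strand) had 426 and 336 reads, 1.36 and 1.65 RPKM per kilobase of span, and 8.84 and 10.7 per kilobase of exon. Each of these 3 genes was below each of the other 5 co-chaperones, in all 15 pairs, with each of 4 gene lengths tried (the authors' span, all exons, the exons of the principal transcript and its span). Among themselves, UNC45A stood above SUGT1 with each of the 4 lengths, although SUGT1 had more reads in both libraries. The place of PPP5C turned with the length. The exonic length of SUGT1 rests on a long transcript: SUGT1-201 holds 14131 bases of exon, and the other coding transcript, SUGT1-202, holds 1217. Each of the 4 lengths of SUGT1 includes SUGT1-201, and a level by SUGT1-202 alone was not computed. A shorter length would raise the level of SUGT1, so its low place holds only for the lengths tried. In reads, SUGT1 and PPP5C were above AHSA1, which had 409 and 302.

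STUB1, the ubiquitin ligase, was the co-chaperone whose level relative to the HSP90 pair differed most between span and exon. STUB1 (ENSG00000103266, chromosome 16, 680224 to 682870, plus strand) had 816 and 508 reads. Its level was 45.2 and 43.2 RPKM per kilobase of span, the fifth highest of the table, and 51.6 and 49.3 per kilobase of exon, rank 34. Its 2646-base span is 1.14 times its exonic length, the smallest such ratio among the members. JMJD8 on the opposite strand overlaps 1200 bases of this span and 42.4% of the exonic bases of STUB1. The kit used preserves strand, per the labels, but the sources used here do not give whether counting used it, so reads of JMJD8 cannot be told apart from those of STUB1. For UNC45A the same holds for HDDC3, which overlaps 17.8% of its exonic bases, and the antisense or opposite-strand overlaps of the other members cover at most 6.35% for any overlapping gene.

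**Figure D2:**
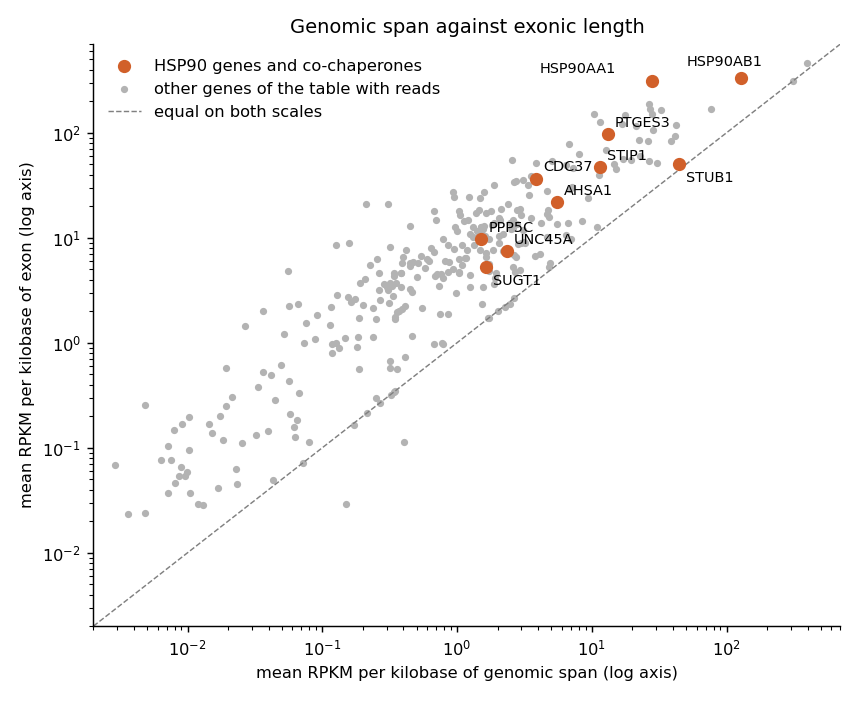
Mean RPKM per kilobase of exon against mean RPKM per kilobase of genomic span, both on log axes, for the HSP90 genes and co-chaperones (orange) and the other genes of the table with reads (grey); the dashed line marks equal values. STUB1 lies near the line at 44.2 and 50.5 RPKM, whereas HSP90AA1 lies far above it at 27.9 and 313 RPKM.

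By mean level per kilobase of span the members ran HSP90AB1, STUB1, HSP90AA1, PTGES3, STIP1, AHSA1, CDC37, UNC45A, SUGT1 and PPP5C. Neighbours in this order were counted as resolved where both libraries gave them in the same order and the 95% normal interval around the mean difference of log2(RPKM + 1) left out 0, with the replicate SD pooled over all 332 genes. On that rule 8 of the 9 neighbouring pairs were resolved, and SUGT1 and PPP5C were not (0.08, SE 0.09). STUB1 and HSP90AA1 counted as resolved with differences as far apart as 0.94 in replicate 1 and 0.39 in replicate 2, a spread that the pooled SE of 0.09 does not reflect. With 0.1 RPKM added in place of 1, 5 pairs were resolved. PTGES3 and STIP1 were resolved by little (0.18, SE 0.09): with the SD pooled over genes of at least 1 RPKM 7 pairs were resolved, and the log2 ratio of STIP1 to PTGES3 by span, -0.20 with a standard error of 0.13, was not called. Per kilobase of exon the order was HSP90AB1, HSP90AA1, PTGES3, STUB1, STIP1, CDC37, AHSA1, PPP5C, UNC45A and SUGT1. There 7 of 9 pairs were resolved, and HSP90AB1 with HSP90AA1 (0.10, SE 0.12) and STUB1 with STIP1 (0.09, SE 0.12) were not. Of the 28 pairs of co-chaperones, 22 were called with the same direction on both scales and 3 turned. PTGES3 minus STUB1 was -1.75 ± 0.13 by span and 0.94 ± 0.13 by exon on the log2 scale, AHSA1 minus CDC37 was 0.52 ± 0.03 and -0.75 ± 0.03, and UNC45A minus PPP5C was 0.65 ± 0.19 and -0.38 ± 0.19.

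In the table ordered by mean RPKM per kilobase of span, the genes next above and below each member were HSPA1B and CALR for HSP90AB1, CCT8 and PPIA for HSP90AA1, CALR and CCT5 for STUB1, VCP and DNAJA1 for PTGES3, and TXN and PSMG1 for STIP1. Lower down they were HSPE1 and FKBP10 for AHSA1, PDIA6 and IFIT5 for CDC37, TOMM34 and TTC30A for UNC45A, CDC27 and SRP68 for SUGT1, and CTR9 and TTC19 for PPP5C. With 1 group of 2 libraries, likeness across conditions could not be measured.

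Set against the summed RPKM of HSP90AA1 and HSP90AB1 within the same library, every co-chaperone was the scarcer RNA. All 8 were below the HSP90 pair in both libraries, and the 95% normal interval of each log2 ratio lay below 0, with each of the 4 gene lengths. Together the 8 co-chaperones amounted to 0.538 ± 0.010 of the pair per kilobase of span and 0.429 ± 0.025 per kilobase of exon (SD, n = 2). By the principal transcripts the same ratio was 0.613 ± 0.045 per kilobase of exon and 0.222 ± 0.027 per kilobase of span. The pair itself held 65.0 ± 0.403% of the members' summed RPKM by span and 70.0 ± 1.21% by exon, and 62.0% by the exons and 81.8% by the span of the principal transcripts.

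For the loading step, STIP1 stood at 7.16% and 7.53% of the HSP90 pair in replicates 1 and 2 per kilobase of span, and at 7.59% and 7.14% per kilobase of exon. By the principal transcripts it averaged 11.8% per kilobase of exon and 2.87% per kilobase of span. CDC37 averaged 2.47 ± 0.195% per kilobase of span (SD, n = 2) and stood at 5.68% and 5.69% per kilobase of exon. For the closed state, PTGES3 stood at 8.27% and 8.60% per kilobase of span and 15.6% and 14.5% per kilobase of exon, the highest share of any co-chaperone on the second scale. For ATPase activation, AHSA1 stood at 3.40% and 3.68% per kilobase of span and 3.43% and 3.32% per kilobase of exon. By the exons and the span of the principal transcripts, PTGES3 averaged 20.1% and 3.17%, and AHSA1 5.35% and 1.34%.

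With the 4 gene lengths tried, the late and client-specific genes had the lowest shares. UNC45A stood at 1.54% and 1.47% per kilobase of span and 1.26% and 1.08% per kilobase of exon. SUGT1 stood at 1.07% and 1.04%, and at 0.877% and 0.757% by exon. PPP5C stood at 0.896% and 1.04%, and at 1.49% and 1.54% by exon. By the exons and the span of the principal transcripts, UNC45A averaged 2.03% and 0.719%, SUGT1 0.659% and 0.397%, and PPP5C 3.83% and 0.376%. In the degradation branch, STUB1 stood at 29.8% and 27.1% of the pair per kilobase of span, the highest share on that scale, but at 8.71% and 7.11% per kilobase of exon. RNA levels do not give the amounts of protein, which were not measured here.

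**Figure D3:**
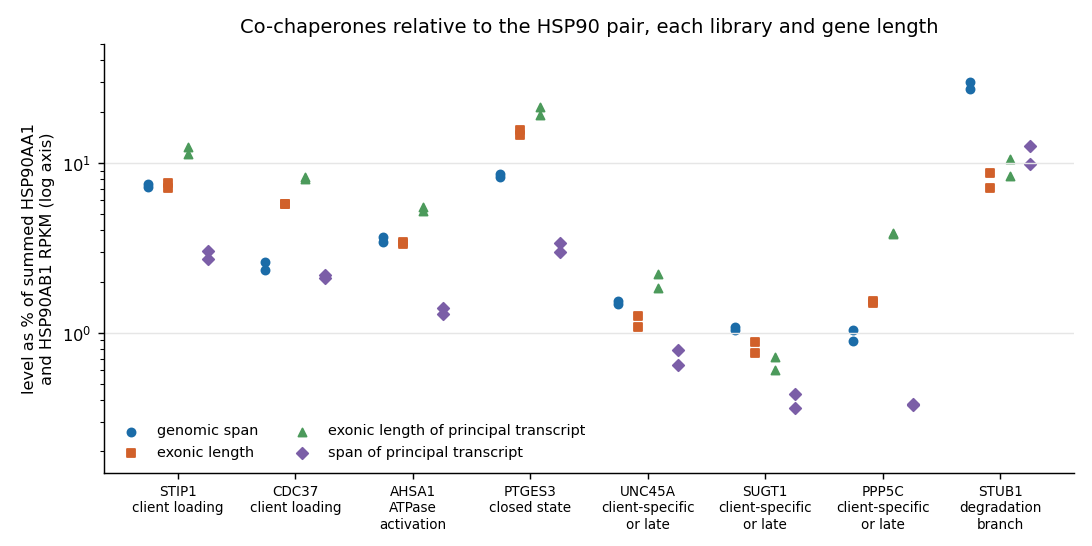
Level of each co-chaperone as a percentage of the summed RPKM of HSP90AA1 and HSP90AB1 (log axis), arranged by step of the cycle; each symbol is 1 library and each colour 1 way of measuring gene length. UNC45A, SUGT1 and PPP5C lie between 0.359% and 3.83% with each of the 4 lengths shown, below the other co-chaperones of the same colour. STUB1 moves from 28.5% by span to 7.91% by exon on average.

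The rest of the pathway places these values. HSP90B1, the HSP90 of the endoplasmic reticulum, averaged 32.5 ± 0.128 RPKM per kilobase of span and 165 per kilobase of exon, and TRAP1, the mitochondrial one, 2.75 ± 0.071 and 34.7 RPKM. Of 38 other HSP90 co-chaperones listed, 21 were in the table and 12 of these reached 1 RPKM per kilobase of span. The 8 co-chaperones above had a median of 4.67 RPKM on that scale, against 1.39 RPKM for these 21 and 0.784 RPKM for all genes. Among the highest by span was the immunophilin FKBP4, which links steroid receptors to HSP90, at 26.6 ± 3.43 RPKM. So were FKBP8 at 6.86, FKBPL at 4.85 and the J-domain protein DNAJC7 at 2.53 RPKM. Per kilobase of exon, FKBP4, FKBP8, FKBPL and DNAJC7 averaged 53.7, 29.1, 5.70 and 12.1 RPKM in turn. UNC45B, the muscle counterpart of UNC45A, had 2 reads in each library.

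On the HSP70 side, from which STIP1 takes clients, 10 of 11 genes reached 1 RPKM per kilobase of span, with a median of 4.67 RPKM. The 5 highest were led by HSPA8 at 394 RPKM and HSPA1B at 311. They were followed by the J-domain protein DNAJA1 at 12.7, ST13 (HIP), which binds HSP70, at 6.39 and HSPA4, an exchange factor, at 5.06 RPKM. Per kilobase of exon, HSPA8, HSPA1B, DNAJA1, ST13 and HSPA4 averaged 466, 311, 67.8, 49.5 and 53.5 RPKM in turn, so the distances between them depended on the length used. HSPA1A had 1 and 3 reads, and HSPA1A and HSPA1B are nearly identical, so their separate levels, and any reads of a tagged HSPA1A transgene, cannot be told apart.

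HSP90AA1 was the member that differed between the libraries. Scaled to library size (RPM), its reads were 1361 in replicate 1 and 1925 in replicate 2, a log2 ratio of replicate 2 to replicate 1 of 0.50 (95% exact counting interval 0.46 to 0.54). In an exact binomial test with the library totals as exposure and Benjamini-Hochberg adjustment over the 320 genes with reads, the adjusted p was 6.74e-115, and 1 of the 10 members was called. Of all genes, 4.69% were called, 1.88% higher and 2.81% lower in replicate 2. HSP90AB1 had 993 and 976 RPM, and the counting interval of its log2 ratio of -0.02 (-0.08 to 0.03) did not reach that of HSP90AA1. Both intervals cover counting error in these 2 libraries only. The test sets 1 library against 1 other of the same group and allows for counting error only, so its p-values say nothing of the spread between cultures. The spread among genes of similar reads, used next, is taken across genes in the same 2 libraries, so it does not measure the spread between cultures either. With the spread among genes of similar reads as error, 2 genes were called instead of 15, HSP90AA1 (adjusted p = 7.29e-08 from that normal model across all genes) and HSPA5.

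By point estimate the co-chaperones moved less than HSP90AA1, although the counting interval of PPP5C overlapped that of HSP90AA1 (0.46 to 0.54). At an unadjusted p under 0.05, 5 members differed, all higher in replicate 2, where 17.2% of all genes differed and 6.88% were higher. Besides HSP90AA1 they were PPP5C (log2 ratio 0.28, interval 0.07 to 0.49), CDC37 (0.23, 0.07 to 0.40), STIP1 (0.14, 0.03 to 0.26) and PTGES3 (0.13, 0.03 to 0.22). Their adjusted p-values in the exact binomial test were 0.112 for PPP5C, 0.0948 for CDC37, 0.166 for STIP1 and 0.112 for PTGES3. With the library totals rescaled by edgeR's TMM factor, CDC37 and PTGES3 passed at an adjusted p of 0.0458 each in the same exact test. In all, 8 of the 10 members had more library-scaled reads in replicate 2, against 45.6% of genes over the table. HSP90AB1 and STUB1 were the exceptions, and UNC45A (0.00) and SUGT1 (0.02) were nearly level.

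Among the 232 genes with at least 100 reads, the 3 whose log2 ratio was nearest to that of HSP90AA1 were CWC27 (0.51), BBS4 (0.49) and EMC2 (0.51), and HSP90AA1 ranked 5 from the top. Of the other co-chaperones in the table, 20 had reads and were tested, and 2 were called. FKBP5, an immunophilin induced by glucocorticoids, had 317 and 331 reads and was higher in replicate 2 by a log2 ratio of 0.68, with an adjusted p of 2.45e-07 in the exact binomial test. FKBP4 had 2073 and 1124 reads and was lower, at -0.26, with an adjusted p of 4.49e-05 in that exact test. On the HSP70 side HSPA1B was called, lower in replicate 2 (-0.10, adjusted p = 0.0252, exact test). Of 19 measured genes that HSF1 can induce, 11 were higher and 8 lower in replicate 2, where 45.6% of all genes with reads were higher. Of the 19, 3 were called, HSP90AA1 higher and HSPA1B and FKBP4 lower. The 19 include the members HSP90AA1, HSP90AB1, STIP1 and AHSA1, and some genes with at most 4 reads in either library, whose direction carries little weight. Of 13 genes of the unfolded protein response, 5 were higher and 8 lower, and HSPA5 was called (0.61, adjusted p = 2.82e-20, exact test). With the spread among genes of similar reads as error, FKBP5, FKBP4 and HSPA1B were no longer called, while HSP90AA1 and HSPA5 were. The part of either response in the HSP90AA1 difference was not tested.

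**Figure D4:**
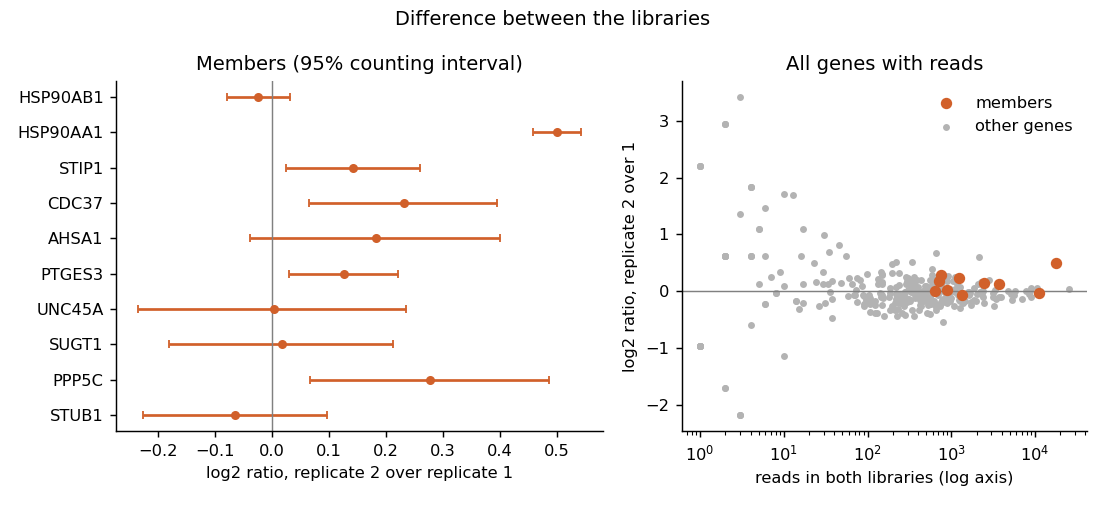
Left, log2 ratio of library-scaled reads in replicate 2 over replicate 1 for each member, with bars for the 95% exact counting interval; right, the same ratio against the reads in both libraries (log axis) for the members (orange) and all other genes with reads (grey). HSP90AA1, at 0.50, has the highest ratio of the members, and the intervals of HSP90AB1, AHSA1, SUGT1, UNC45A and STUB1 include 0.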

How the data were processed

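Per the labels' protocols, Trizol RNA was used for strand-preserving libraries. STAR 2.6.0b, Bowtie2 2.4.2, Trim Galore 0.6.4 and the build GRCh38 are named in the submitters' processing notes, without roles. The sources used here do not give the counting program, annotation release, read length or strand setting. Each replicate has a column of deposited read counts, whole numbers throughout. The deposited mean RPKM, by the authors, equals the mean over replicates of reads per kilobase of genomic span and library size. Library totals were recovered from it by least squares (largest relative misfit 8.37e-14) and gave the RPKM of each replicate.

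Exonic length, principal transcripts (best APPRIS tag, then longest), overlaps and shared windows of 50 bases came from GENCODE 29, also on GRCh38, in which all 332 identifiers were found. Start-region sequences came from RefSeq. The planned comparison of HSP90 proteins was not run; coding sequences were compared instead. The standard error of log2 ratios, 0.13, pools the replicate SD over the 154 genes of at least 1 RPKM, and that of log2(RPKM + 1) pools it over all genes. Ratios between libraries add 0.5 reads. The binomial test used scipy 1.17.1 and TMM edgeR 4.0.16, and scripts were tested on simulated data.

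The members, gene lists, tests and alternatives were chosen with earlier results of these data known. Genes named were the members, the 5 highest of the other co-chaperones and of the HSP70 side, HSP90B1 and TRAP1, called genes of the stress lists, the 3 genes most like HSP90AA1 between libraries, and neighbours in level. A gene that this rule names is not reported here. UNC45B, HSP90AA2P, HSPA1A, FKBP5 and overlapping genes were named after their values were seen.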

Additional observations from a re-analysis of the deposited data

How the results depend on the processing

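Of 202 recalculated values, 167 kept their direction and call or stayed within the replicate spread, 29 moved, 3 reversed, 2 newly passed a threshold and 1 fell short of it; 42 of the 202 use principal transcripts, chosen after seeing the data. Gene length moved most levels. In RPKM by all exons, by the exons of the principal transcript and, where it moved, by that transcript's span, they were 313, 486 and 255 for HSP90AA1, 330.4, 368 and 164 for HSP90AB1, 50.5, 79.4 and 46.3 for STUB1, 36.6, 69.2 and 8.97 for CDC37, and 7.47, 17.2 and 2.98 for UNC45A. By exons alone they were 47.3 and 100.2 for STIP1, 96.7 and 171 for PTGES3, 21.7 and 45.6 for AHSA1, 5.23 and 5.59 for SUGT1, and 9.77 and 32.7 for PPP5C. A shorter length raises a level by construction. The log2 ratio of HSP90AB1 to HSP90AA1 lost its call at 0.10 by exons and reversed to -0.38 and -0.62 by the principal transcript's exons and span; the spread of this ratio between the libraries, 0.37, exceeds the pooled standard error of 0.13 used for these calls. Against HSP90AA1 alone by span, STUB1 reversed to 0.69. A threshold of 5 RPKM left 6 of 10 members, and a pseudocount of 0.1 RPKM left 5 resolved neighbours. With the spread among genes of similar reads as error in place of counting error, 2 genes were called between the libraries instead of 15, HSPA5 and HSP90AA1, and FKBP5, FKBP4 and HSPA1B lost their calls. With the TMM factor 3 members were called instead of 1. Leaving out either replicate gave 10 members at 1 RPKM or more and 7 resolved neighbours. No paired analysis was possible because the 2 libraries form a lone group.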
